A study of Mus musculus with 39 samples.

Results

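The Ebf family and Cajal-Retzius neuron genes analyzed here were Ebf1, Ebf2, Ebf3, Reln, Lhx1, Lhx5, Calb2, Trp73 and Nhlh2, 9 of the 53379 genes in the tables. They were chosen because Ebf2 was lost from E13 to E16 in yellow cells, so the yellow values of the members are given without a test. RNA was sequenced from pools of 200 to 400 fluorescent cells sorted from the neocortex of single mouse embryos, 6 at embryonic day 13 (E13) and 7 at E16. All embryos carried the MADM-7 cassettes GT and TG on chromosome 7 and Emx1-Cre, in a mixed C57BL/6J and CD1 background (the strain label reads CD1), and no group carried a further allele or agent. In Mosaic Analysis with Double Markers (MADM), Cre-driven exchange between homologous chromosomes at cell division leaves red (tdT+) and green (GFP+) cells, in which the 2 copies of chromosome 7 come from the same parent, and yellow (GFP+ and tdT+) cells with a maternal and a paternal copy. Emx1-Cre is active in progenitors of the dorsal telencephalon, and the sort used color alone, so each pool could hold any cell type descended from them. The labels do not say which parent a color stands for. By the sample sheet of the study the parents of red and green are exchanged between the earlier and the later replicates of each age, so a color mixes both, and red and green were compared as colors. Replicates were single individuals, and red, green and yellow libraries that share an age and a replicate number were treated as 1 embryo.

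A library was kept when at least 40% of its reads aligned uniquely, which left 36 of 39 libraries, 5 per color at E13 and 7 per color at E16. The kept library nearest to this limit had 50.5% and the nearest one left out had 36.1%. Gene counts of the kept libraries ran from 472924 to 5205788, so that 3 counts, taken as the floor of detection, stood for 0.576 to 6.34 CPM (counts per 1000000 gene counts). Smart-Seq2 reads carry no molecular identifiers, so floors and counting intervals cover counting error only. In such bulk samples, fewer cells of a type and less RNA per cell cannot be told apart.

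Cajal-Retzius neurons are among the first neurons of the cortex. They arise at the borders of the cortical field, chiefly the cortical hem, the septum and the pallial-subpallial border, spread over the cortical surface in the marginal zone, and secrete reelin, which guides the layering of later neurons. The Ebf proteins are transcription factors with a helix-loop-helix dimerization domain that act in early neurons and also in mesenchymal cells. Lhx1 and Lhx5 are LIM homeodomain factors, Trp73 encodes the p53 relative p73, Nhlh2 is a neuronal basic helix-loop-helix factor, and Calb2 encodes the calcium-binding protein calretinin.

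All 9 members are protein-coding genes. In GRCm38 Ebf1 lies on the plus strand of chromosome 11 (44617317 to 45008091), Ebf2 on the plus strand of chromosome 14 (67233292 to 67430918) and Ebf3 on the minus strand of chromosome 7 (137193673 to 137314445), the chromosome that carries the MADM cassettes. Reln lies on the minus strand of chromosome 5 (21884454 to 22344702) and Lhx5 on its plus strand (120431699 to 120441223). Lhx1 is on the minus strand of chromosome 11 (84518284 to 84525535), Calb2 on the minus strand of chromosome 8 (110137502 to 110168210), Trp73 on the minus strand of chromosome 4 (154056253 to 154140208) and Nhlh2 on the plus strand of chromosome 3 (102010076 to 102015492). Ebf2, Ebf3, Reln, Lhx5 and Trp73 share exon bases with an antisense gene. The reads were counted without strand, so their counts are uncertain to that extent.

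Promoter sequences of 6 members, 8 windows in all, were in RefSeq's table (GRCm38.p6). The 250 bases before the annotated start are printed for 3 members whose levels are described in detail below, Ebf3, Nhlh2 and Reln. Capitals mark CCCNNGGG, the core of the palindrome that Ebf dimers bind, which reads the same on both strands.
Ebf3 (chr7:137314446-137314695, minus strand): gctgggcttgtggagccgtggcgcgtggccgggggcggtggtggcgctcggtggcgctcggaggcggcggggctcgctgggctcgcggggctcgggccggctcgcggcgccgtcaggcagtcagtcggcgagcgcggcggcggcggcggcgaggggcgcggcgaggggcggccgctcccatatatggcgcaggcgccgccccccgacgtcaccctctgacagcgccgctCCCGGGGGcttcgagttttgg
Nhlh2 (chr3:102009895-102010144, plus strand): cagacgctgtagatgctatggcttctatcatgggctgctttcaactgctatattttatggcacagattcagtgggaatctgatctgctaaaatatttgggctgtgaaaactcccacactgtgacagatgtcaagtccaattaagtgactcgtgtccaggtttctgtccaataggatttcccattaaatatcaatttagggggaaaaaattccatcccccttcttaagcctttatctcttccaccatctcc
Reln (chr5:22344706-22344955, minus strand): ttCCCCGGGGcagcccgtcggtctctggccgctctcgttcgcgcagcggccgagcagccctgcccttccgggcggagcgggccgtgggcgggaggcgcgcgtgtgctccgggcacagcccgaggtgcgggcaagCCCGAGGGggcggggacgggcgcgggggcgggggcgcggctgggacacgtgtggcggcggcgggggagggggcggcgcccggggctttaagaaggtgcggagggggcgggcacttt

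The core CCCNNGGG was found in 2 of the 8 member windows, once in Ebf3 (first base at position -21 from the start) and at 2 places in Reln (-248 and -116), against 11.8% of all 32851 promoters of this length. The full Ebf palindrome, this core with T before and A after it, was found in 0 of 8 (0.779% of all promoters), the E-box CAGCTG in 1, a Trp73 window at -187 (13%), and the homeodomain core TAATTA in 0 (4.84%). The Ebf3 and Reln windows each held 80.0% G and C and the Nhlh2 window 42.0%, beside a median of 52.4% over all promoters. These matches describe letters, not binding.

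Ebf2 was detected at 3 counts or more in 15 of 15 kept libraries at E13 and in 1 of 21 at E16. In red cells its levels at E13 were 41.4, 39.1, 11.2, 19.9 and 94.3 CPM in replicates 1, 2, 3, 4 and 6. In green cells they were 65.8, 0.768, 6.57, 47.4 and 150.3 CPM in the same replicates. Green replicates 2 and 3 were low, with 4 and 8 counts, and replicate 6 was the highest of either color. At E16 the red libraries held 0 counts of Ebf2 except 1 count in replicate 7, and the green libraries 0 except 1 count in replicate 3. The 3 libraries left out by the alignment limit differed, with 102 counts of Ebf2 in E13 yellow replicate 3 and 0 in E13 red and green replicate 5. With all 39 libraries 16 of 18 E13 libraries detected Ebf2.

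The question whether the loss seen in yellow cells was present in the other sorted colors was addressed by summing red and green counts of each embryo. These cells were not used to choose the members, although they came from the same embryos as the yellow libraries. Ebf2 was 49.7, 16, 10.2, 31.5 and 121 CPM in the 5 E13 embryos, and 0, 0.128 or 0.207 CPM in the 7 E16 embryos, without overlap. Over all genes, 2.98% were lower at E16 without overlap in this comparison. Pooled over embryos there were 1681 Ebf2 counts at E13 and 2 at E16, a ratio of 1094 after division by depth (95% counting interval 302 to 9040). E13 replicate 6 held 1007 of these counts, and without it the ratio was 579, while it was 1805 or 1951 without E16 replicate 3 or 7, each of which held 1 of the 2 E16 counts. The fitted log2 fold change of Ebf2 was -9.30 (SE 1.10, edgeR quasi-likelihood test, adjusted p = 0.000467), and an exact two-sided permutation test over the 12 embryos gave p = 0.0013, the smallest that 5 against 7 embryos allow. A fitted fold change against a group at or near 0 depends on the prior count of the fit and is no bound. Ebf2 was the 1 member of 7 tested that passed the threshold, where 3.24% of the 12797 genes tested passed (1.56% in the lower direction). In the 6 later replicates alone, numbered 4 and above, the Ebf2 value was -10.03 with an adjusted p of 0.0927 in edgeR, where 0 genes of all passed (1608 at an unadjusted p under 0.05).

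In the separate colors Ebf2 also fell, with log2 fold changes of -8.36 in red cells (SE 1.57, edgeR adjusted p = 0.0352) and -9.30 in green cells (SE 1.44, edgeR adjusted p = 0.00371). Of 7 members tested in each color, Ebf2 and Ebf3 passed in red and Ebf2 in green. Of all genes tested, 0.322% passed in red (0.152% lower) and 1.39% in green (0.644% lower), and 1.99% were lower without overlap in green. The 2 colors are from the same embryos and are not independent. The red Ebf2 call was lost without any 1 of 10 of the 12 red libraries (E13 replicates 1, 2, 3, 4 and 6, E16 replicates 1, 2, 3, 4 and 7), with edgeR adjusted p from 0.0521 to 0.152. The last value, at a log2 fold change of -7.66, was without E13 red replicate 6. The green Ebf2 call was kept without each library in turn, and lost in replicates 1 to 3 alone (edgeR adjusted p = 0.229), in later replicates alone (0.120) and with the replicate number as a block (0.102).

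**Figure D1:**
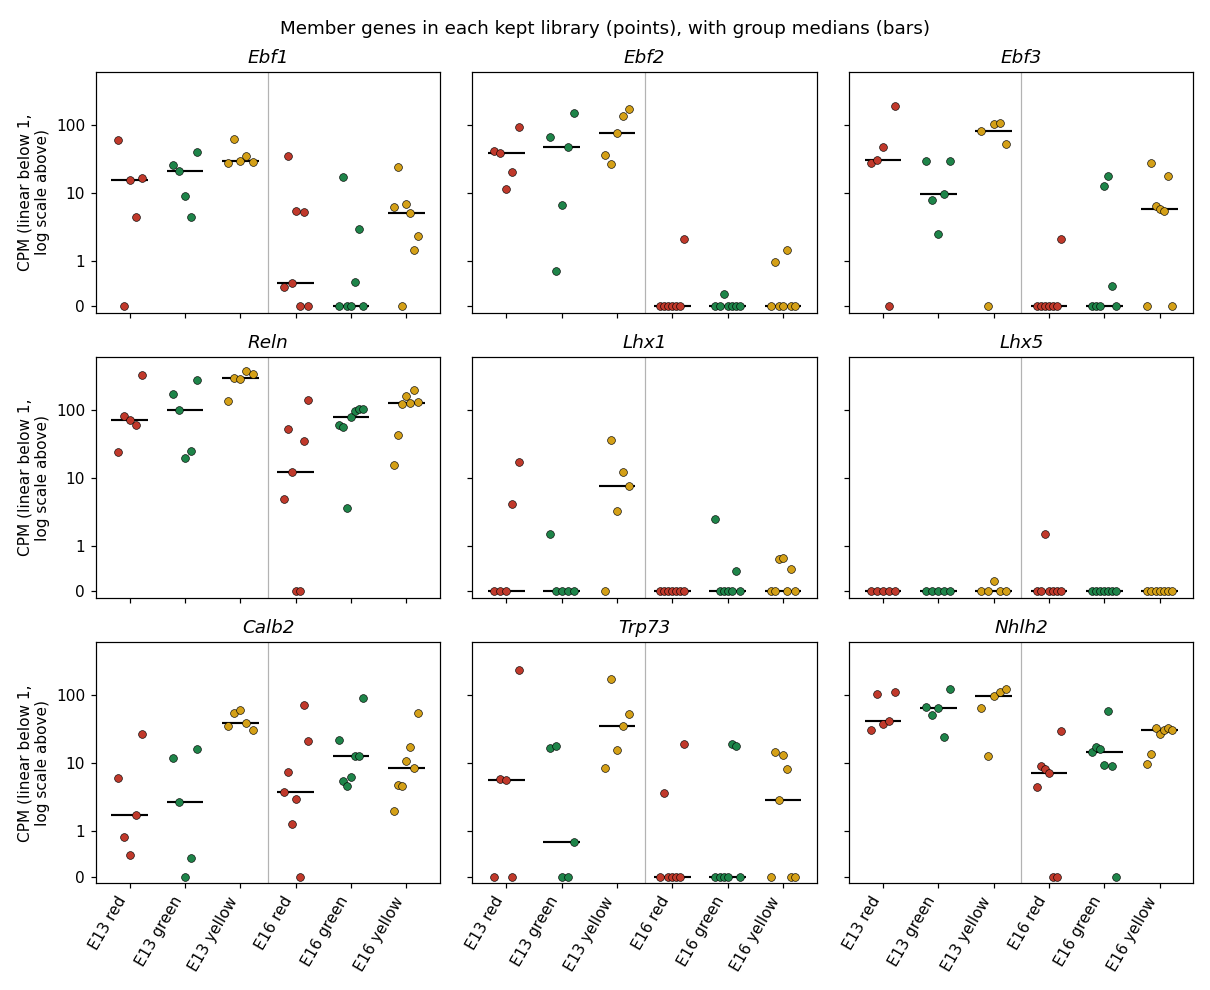
Level of each member in every kept library, in CPM on an axis that is linear below 1 and logarithmic above, by age and color, with group medians as bars. Ebf2 points lie at or near 0 in all E16 groups, with a highest value of 2.11 CPM, while Reln, Nhlh2 and Calb2 keep medians above 0 in all 6 groups.

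Ebf3, the family member on the MADM chromosome, reached 3 counts in 13 of 15 libraries at E13 and in 7 of 21 at E16. Of the latter, 5 were yellow and 2 green. In red cells at E13 it was 27.0, 30.6, 47.1, 0 and 190.0 CPM in replicates 1, 2, 3, 4 and 6, so that replicate 4 had no Ebf3 and replicate 6 stood above the others. Red cells at E16 had 1 Ebf3 count in 1 of 7 libraries. The red log2 fold change was -8.95 (SE 1.81, edgeR adjusted p = 0.0479), with 1244 counts pooled at E13 and 1 at E16 (ratio 1419 after division by depth, 95% counting interval 254 to 56090). Without E13 red replicate 6 the pooled ratio was 607 and the red Ebf3 value -7.54 with an edgeR adjusted p of 0.222, and the call was also lost without E13 red replicate 1, 2 or 3 or E16 red replicate 1, 2, 3, 4, 6 or 7.

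In green cells Ebf3 was 29.7, 7.88, 2.46, 9.65 and 28.8 CPM at E13, and at E16 its lowest and median levels were 0 and its highest 17.6 CPM. The green groups overlapped, and the fitted change, -1.82 on the log2 scale (SE 1.63, edgeR adjusted p = 0.679), did not pass. The age difference of Ebf3 in green minus that in red was 4.80 on the log2 scale (SE 2.94, edgeR adjusted p = 1), so a difference between the colors was not shown. For red and green summed, Ebf3 was 27.9, 16.9, 37.3, 4.07 and 114 CPM at E13 and at most 9.15 CPM at E16, with -4.29 as the fitted log2 fold change (SE 1.39, edgeR adjusted p = 0.0994). The exact permutation p was 0.0038 for Ebf3, unadjusted. Leaving out E16 replicate 5, which held 66 of the 77 E16 counts, gave -6.51 with an edgeR adjusted p of 0.0194. The Ebf3 call was also gained by DESeq2 (adjusted p = 0.0160), with the 32 libraries of the study (edgeR adjusted p = 0.0386), with a term for earlier against later replicates (0.0369) and in replicates 1 to 3 alone (-10.45, edgeR adjusted p = 0.0271).

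Ebf1, which is also a regulator of striatal neurons and of mesenchymal and blood lineages, was variable at both ages. Summed over red and green it was 48.7, 12.6, 14.2, 4.41 and 27.4 CPM in the E13 embryos, and its lowest, median and highest E16 values were 0, 0.277 and 25.8 CPM. The highest E16 embryo, replicate 2, lay within the E13 range, and without it the log2 fold change was -3.63 (edgeR adjusted p = 0.128). The Ebf1 log2 fold change was -1.94 (SE 1.24, edgeR adjusted p = 0.426), and the exact permutation p was 0.020, unadjusted, or 0.056 with the 32 libraries the study kept. Ebf1 was detected in 14 of 15 libraries at E13 and 11 of 21 at E16.

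Nhlh2 was the most evenly detected of the transcription factors, at 3 counts or more in 15 of 15 libraries at E13 and 18 of 21 at E16. Summed over red and green it was 43.6, 72.4, 43.4, 34.4 and 118 CPM at E13, and its lowest, median and highest values at E16 were 2.90, 8.67 and 30.2 CPM. All E13 embryos were above all E16 embryos. The log2 fold change of Nhlh2 was -2.24 (SE 0.60, edgeR adjusted p = 0.0527), just short of the threshold, with an exact permutation p of 0.0025, unadjusted. Without E16 replicate 5, the highest E16 embryo, it was -2.77 with an edgeR adjusted p of 0.0156. Nhlh2 also passed by DESeq2 (adjusted p = 0.00418) and with the 32 libraries of the study (-2.64, edgeR adjusted p = 0.0264). In red cells alone the Nhlh2 groups did not overlap either (1.93% of all genes were lower without overlap there), with 31.1 to 112 CPM at E13 and 0 to 29.6 CPM at E16. The log2 fold change in red was -2.97 (SE 1.16, edgeR adjusted p = 0.285), and in green, where the groups overlapped, -1.80 (SE 0.91, edgeR adjusted p = 0.360).

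**Figure D2:**
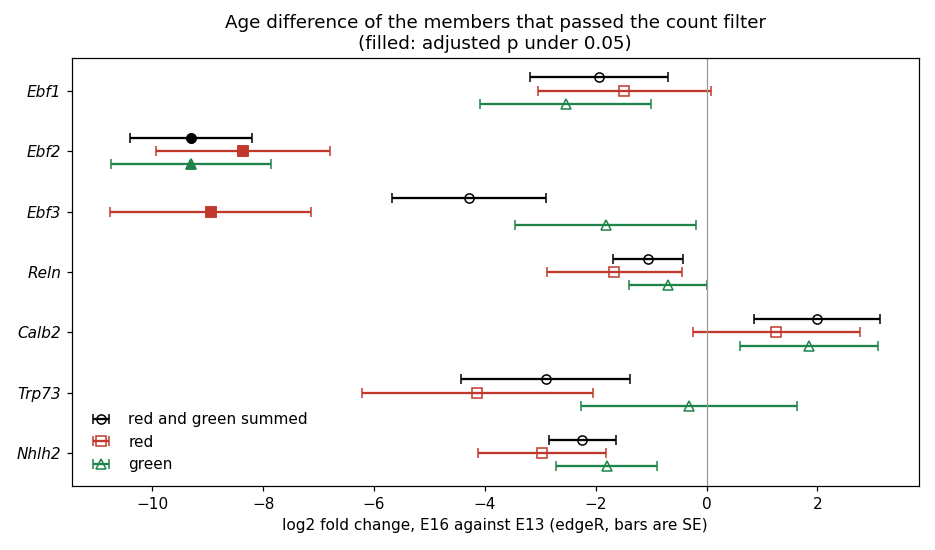
Fitted log2 fold change of E16 against E13 with its SE for the 7 members that passed the count filter, for red and green summed per embryo, red alone and green alone, with filled symbols for an adjusted p under 0.05. Ebf2 is filled in all 3 comparisons and Ebf3 in red, and Calb2 alone has values above 0.

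Reln, the gene of reelin, remained detectable at E16. Summed over red and green it was 75.5, 92.0, 59.1, 44.9 and 305 CPM at E13, and its lowest, median and highest E16 values were 8.08, 49.5 and 108 CPM. The groups overlapped, and the fitted change, -1.06 on the log2 scale (SE 0.63, edgeR adjusted p = 0.385, exact permutation p = 0.0997), did not pass. Replicate 6 was the highest E13 embryo in both colors, at 331 CPM in red and 278 CPM in green, and without it the log2 fold change of Reln was -0.32 (edgeR adjusted p = 0.867). Red replicates 4 and 5 at E16 had 0 Reln counts, and red replicate 5 had no member at 3 counts. The study left out red replicate 5, in which 8803 genes were detected, beside 7858 to 13768 over the kept libraries.

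Of 21 further genes of the reelin pathway, all passed the count filter, 1 was higher at E16 past the threshold and none lower past it (median log2 fold change 0.04, beside 0.06 for all genes tested). Dab1, the adaptor that binds the reelin receptors and is phosphorylated by Src family kinases, was the one that rose (log2 fold change 1.83, SE 0.28, edgeR adjusted p = 0.00283). The receptor genes did not pass, with 1.20 (SE 0.57, edgeR adjusted p = 0.257) for Lrp8 and -0.08 (SE 0.83, edgeR adjusted p = 0.977) for Vldlr.

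Trp73 was concentrated in few libraries. In red cells at E13 it was 0, 5.83, 5.60, 0 and 234 CPM, and replicate 6 held 1023 of the 1067 counts of this group. In green cells at E13 it was 16.8, 17.7, 0, 0 and 0.759 CPM, so the embryo with the highest red value was near the floor in green. At E16 Trp73 reached 3 counts in 2 of 7 red and 2 of 7 green libraries, with at most 19.2 CPM. The log2 fold change over the summed colors was -2.90 (SE 1.53, edgeR adjusted p = 0.315), and -0.58 without E13 replicate 6 (edgeR adjusted p = 0.915). Trp53, the other p53-family gene tested, had -0.95 (SE 0.28, edgeR adjusted p = 0.0771), and Trp63 was under the count filter.

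Calb2 was the 1 tested member with a value above 0. Summed over red and green it was 8.12, 1.97, 0.364, 1.19 and 22.1 CPM at E13, and its lowest, median and highest E16 values were 2.95, 6.65 and 84.0 CPM. The groups overlapped (log2 fold change 1.99, SE 1.14, edgeR adjusted p = 0.360). It was 3.15 without E13 replicate 6 and 1.07 without E16 replicate 7. In red cells the sign depended on E16 red replicate 6, without which the Calb2 value was -0.25. The study left out that library, in which 9210 genes were detected.

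Lhx1 and Lhx5 were under the count filter in singly colored cells. Lhx1 reached 3 counts in 2 of 5 red libraries at E13, with 14 counts in replicate 4 and 76 in replicate 6, and in 1 of 5 green libraries, with 3 counts. It was at 0 in all 7 red libraries at E16, at least 34.2-fold lower than at E13 against a floor of 3 counts over the group. The bound rested on E13 red replicate 6, without which it was 6.88-fold. In green cells there were 3 Lhx1 counts at E13 and 6 at E16. Lhx5 reached 3 counts in 1 of the 36 libraries, E16 red replicate 3, with 6 counts. Of 9 genes for LIM-domain partners and cofactors, 2 rose past the threshold and none fell past it. These were Ldb2 (log2 fold change 2.83, SE 0.50, edgeR adjusted p = 0.0059) and Ssbp2 (1.75, SE 0.34, edgeR adjusted p = 0.0109).

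The yellow cells are described without a test, since their age contrast chose the members. Ebf2 was 36.3, 26.9, 74.8, 137 and 169 CPM in yellow replicates 1, 2, 4, 5 and 6 at E13, and at E16 it had 0 counts except 1 count in replicate 2 and 4 in replicate 5. Ebf1 was 27.6, 61.5, 29.8, 34.2 and 28.3 CPM at E13, all above the highest E16 value of 24.2 CPM. Ebf3 was 80.0, 0, 104, 107 and 53 CPM at E13, with lowest, median and highest levels of 0, 5.83 and 27.1 CPM at E16. In yellow cells 0.149% of all genes passed the edgeR threshold (0.0527% lower) and 0.738% were lower at E16 without overlap.

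Reln in yellow cells was 134, 292, 290, 378 and 342 CPM at E13, and 15.7, 128 and 198 CPM were its lowest, median and highest E16 levels. Nhlh2 was 64.6, 12.9, 97.5, 112 and 122 CPM at E13 and 9.82 to 32.9 CPM at E16. Trp73 was 8.43, 172, 15.7, 34.9 and 53.4 CPM at E13 and 0 to 14.5 CPM at E16. Yellow replicate 2 at E13 stood apart, with the highest Trp73, Ebf1 and Lhx1 (36.2 CPM) and the lowest Nhlh2, Ebf3 and Ebf2 (26.9 CPM) of its group. In that library 9655 genes were detected and 40.9% of unique reads had no feature. Lhx1 was 0, 36.2, 3.23, 12.2 and 7.67 CPM at E13 and reached 3 counts in no yellow library at E16, where its highest level was 0.728 CPM. Calb2 was 35.8, 55.5, 60.1, 39.3 and 30.7 CPM at E13 and 1.96, 8.47 and 54.9 CPM at its lowest, median and highest at E16.

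**Figure D3:**
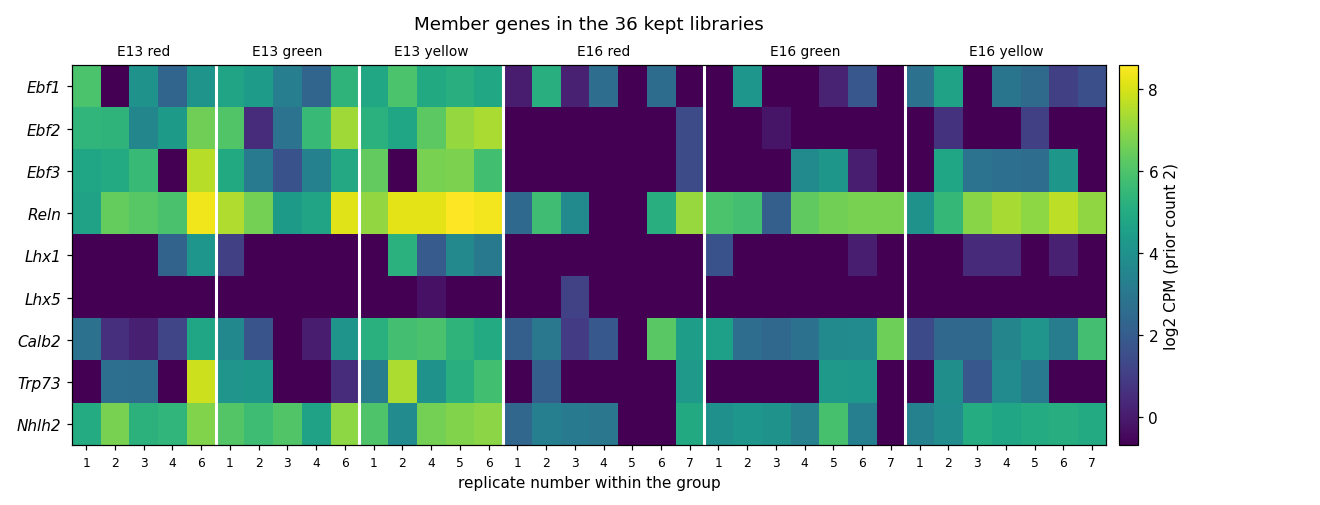
Heat map of log2 CPM (prior count 2) of the 9 members, as rows, in the 36 kept libraries, as columns grouped by age and color and labeled by replicate. The E13 libraries held 5 to 8 members at 3 counts or more and the E16 libraries 0 to 7, and the Ebf2 row is dark in the E16 columns.

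Singly colored cells, which carry chromosome 7 from 1 parent, were next compared with yellow cells of the same embryos. At E13 none of the 7 members tested besides Ebf2 passed (1 gene of 11786 did, 0.00848%, and 808 genes at an unadjusted p under 0.05). Calb2 was lower in singly colored cells, from 0 to 27.2 CPM, than in all 5 yellow libraries, and yellow was the highest color in 4 of the 4 embryos with all 3 libraries. The log2 difference of Calb2, singly colored against yellow, was -3.84 (SE 1.30), with an edgeR adjusted p of 0.584 and, by DESeq2's Wald test, 0.00395. Over all genes 0.288% were lower in singly colored cells at E13 without overlap. DESeq2 passed 538 genes here.

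Reln was above the mean of red and green in yellow cells of 4 of 4 embryos at E13, with a log2 difference of -1.44 (SE 0.60, edgeR adjusted p = 0.689) for singly colored against yellow. The remaining differences at E13 were -1.52 (SE 1.27) for Ebf1, -0.83 (SE 1.68) for Ebf3, -2.95 (SE 2.17) for Trp73, -3.02 (SE 3.16) for Lhx1 and -0.21 (SE 0.69) for Nhlh2. Ebf2, whose yellow values chose the members, was above the mean of red and green in yellow cells of 3 of 4 embryos. The summed level of 10 radial glia markers was 867 to 2000 CPM in yellow and 1924 to 3875 CPM in singly colored cells at E13, and that of 12 projection neuron markers 5306 to 6367 and 3580 to 5627 CPM. Their part in the color differences was not tested.

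At E16 no gene of 10794 passed for singly colored against yellow cells (0%, edgeR, 257 genes at an unadjusted p under 0.05, and 82 by DESeq2), and none of the 6 members tested did. Nhlh2 was above the mean of red and green in yellow cells of 7 of 7 embryos, at a log2 difference of -1.26 (SE 1.09, edgeR adjusted p = 1). Reln was above it in 5 of 7 (-1.55, SE 0.92, edgeR adjusted p = 1). Ebf3 reached 3 counts in 5 of 7 yellow, 2 of 7 green and 0 of 7 red libraries (-4.65, SE 2.05, edgeR adjusted p = 1). Calb2, which was highest in yellow at E13, was highest in yellow in 2 of 7 embryos at E16 (-0.10, SE 0.93).

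Green and red cells were compared in the same fits. No gene passed in edgeR at either age (0% at both, with 261 genes at E13 and 251 at E16 at an unadjusted p under 0.05), nor did any gene pass for the difference between ages (0%, 244 genes). DESeq2 passed 229, 76 and 79 genes in these 3 comparisons, and no member. For Ebf3 the difference of green against red was -2.0 (SE 1.55) at E13 and 3.59 (SE 2.82) at E16, and for Reln 0.04 (SE 0.66) and 1.70 (SE 1.15). A parental effect was not tested, since each color holds libraries of both parental directions.

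**Figure D4:**
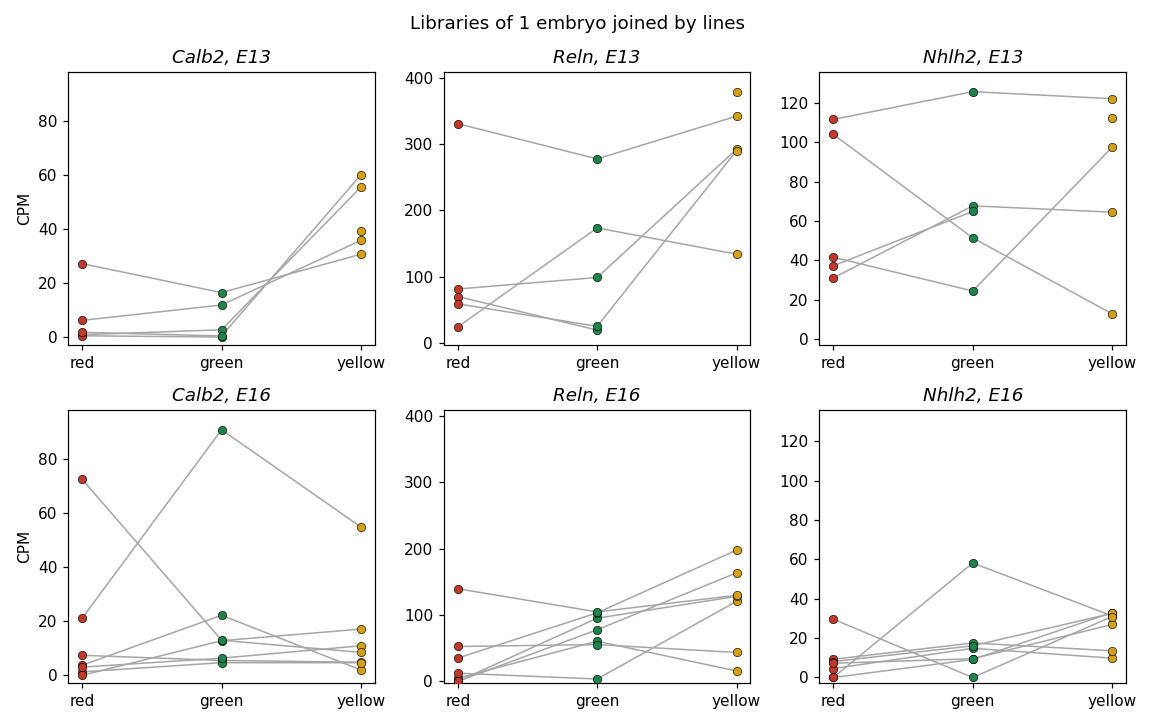
CPM of Calb2, Reln and Nhlh2 in red, green and yellow cells, with libraries of 1 embryo joined by lines, at E13 (upper row) and E16 (lower row). At E13 yellow is the highest color for Calb2 in each of the 4 complete embryos, and at E16 the lines cross.

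Levels were compared between genes per kilobase of exon. Over the 15 E13 libraries the median level was 12.0 CPM per kilobase for Nhlh2, 6.81 for Calb2, 5.98 for Ebf2, 5.65 for Reln, 3.22 for Ebf3, 2.64 for Ebf1, 1.52 for Trp73, and 0 for Lhx1 and Lhx5. Neighbors in this order were not separated by their ranges. Ebf2, for example, ran from 0.111 to 24.4 CPM per kilobase and Reln from 0.831 to 15.9.

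Members varied together among E13 libraries to different degrees. Over the 15 libraries, which share embryos and include the yellow ones that chose the members, Spearman's rho was 0.87 for Reln and Trp73, 0.83 for Reln and Calb2, 0.78 for Reln and Lhx1, and 0.69 for Ebf2 and Nhlh2. Ebf2 had 0.66 with Reln, 0.61 with Ebf3 and 0.37 with Trp73. Across all 36 libraries, where age dominates, the 5 genes of 11464 whose levels were ranked most like those of Ebf2 were Crabp2 (rho 0.89), Hist1h2bp (0.86), Arhgap19 (0.84), Asf1b (0.81) and Hist1h2bm (0.80). The same list for Reln was Trp73 (0.74), Fancc (0.71), Calb2 (0.69), Kcnj5 (0.68) and Robo3 (0.66). Crabp2, a retinoic acid-binding protein gene, had a median of 18.1 CPM at E13 and 0 at E16. Robo3, a guidance receptor gene, had a median of 1.85 CPM at E13 and 0 at E16.

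The other genes of the same neurons did not give calls. Of 14 further Cajal-Retzius neuron genes, 11 were tested in singly colored cells and none passed in either direction (median log2 fold change -0.77). Of 14 genes of the hem, septum and thalamic eminence, from which these neurons derive, 6 were tested and none passed (median -4.09). Only 1 of the 14 passed the count filter in the color fits at E16. The median thus leans on genes that entered through their E13 counts and does not measure a fall of the list. It was -4.44 over 3 genes in red, -7.42 over 3 in green and 0.19 over 2 in yellow cells. The 3 further genes linked to Ebf function, Ebf4, Zfp423 and Zfp521, did not pass, with -1.98 (SE 1.58), -1.06 (SE 0.58) and -0.64 (SE 0.49).

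Markers of cortical cell types moved with age in the same libraries. Of 9 radial glia genes tested 6 fell, among them Id4 (log2 fold change -3.0, edgeR adjusted p = 0.000323), Vim (-1.75, 0.0012) and Nes (-4.61, 0.0021), and none rose past the threshold. Fabp7 of this list was above 0 in red (1.01, SE 0.42) and green (0.71, SE 0.44), and Slc1a3 in green (1.47, SE 0.39). The list medians were -1.81 in red and -2.60 in green. Of 12 projection neuron genes 4 rose, among them Neurod6 (log2 fold change 1.39, edgeR adjusted p = 0.00278) and Stmn2 (1.26, 0.00594), and none fell past the threshold. The other 8 did not pass, and the list median was 0.70. Bcl11b of this list was below 0 in red (-0.42, SE 0.78) and in green (-0.05, SE 0.46). Of 5 intermediate progenitor genes tested Gadd45g alone passed (-2.23, edgeR adjusted p = 0.00312, list median -0.78). Of 4 subplate genes tested Nxph4 alone passed (-4.47, edgeR adjusted p = 0.0470, list median -0.68). Both lists held values above 0 in a single color, as for Insm1 of intermediate progenitors in red (0.31, SE 0.66, list median -0.81) and Nr4a2 of the subplate in green (1.06, SE 0.69, list median -0.43). Of 7 interneuron genes tested Npy rose (6.23, edgeR adjusted p = 0.0334) and none fell past the threshold, with a median log2 fold change of -2.74 over the 7. Only 2 of the 10 listed passed the count filter in the color fits at E16, so this median leans on genes that entered through their E13 counts. The median summed level of the 10 was 40.2, 40.3 and 135 CPM in red, green and yellow cells at E13. At E16 it was 232, 112 and 207 CPM in the same order. No striatal, thalamic or endothelial and pericyte marker passed, with 2, 2 and 4 genes tested. Of 5 dorsal telencephalic genes tested, the same Neurod6 rose and none fell past the threshold, the median log2 fold change was -0.62, and the summed level of the 6 listed was 472 to 1286 CPM at E13 and 880 to 2382 CPM at E16.

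Markers of cells outside the Emx1 lineage also moved with age. Of 6 meningeal fibroblast genes tested 3 fell, Col3a1 (log2 fold change -12.36, edgeR adjusted p = 0.00378), Col1a2 (-6.15, 0.0118) and Lum (-4.82, 0.0401), and none rose past the threshold. The summed level of all 8 was 29.1 to 927 CPM over the E13 libraries and 0.654 to 73.1 CPM at E16, where Col3a1 stayed under 3 counts in each color. Of 3 blood and microglia genes tested, the embryonic globin gene Hbb-y fell (-14.13, edgeR adjusted p = 0.00514), and the summed level of the 9 listed ran from 0.228 to 50261 CPM at E13 and from 0.211 to 5158 CPM at E16. The microglia and leukocyte genes C1qa and Ptprc stayed under 3 counts in all E16 libraries. They did so in all E13 red and yellow libraries too, and reached 3 counts at E13 in green cells only. Other genes of this list went the other way. Aif1 stayed under 3 counts in all E13 red and green libraries and reached 3 counts in each E16 color. C1qb and Cx3cr1 reached 3 counts in red cells at E16 but not at E13, and in yellow cells at E13 but not at E16.

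In 5 E13 libraries, yellow replicates 4 and 5 and the 3 colors of replicate 6, the meningeal sum was 29.1 to 58.7 CPM, within the E16 range. Like sums need not rest on the same genes. At E16 only 1 of the 8 genes, Cxcl12, passed the count filter in the color fits. Col3a1 was 10.9, 4.74 and 2.02 CPM in E13 yellow replicates 4 and 5 and green replicate 6. In E13 red and yellow replicate 6 and in every E16 library it was 0 CPM. Of the 5 libraries, 3 are yellow, whose Ebf2 values chose the members, and the other 2 came from 1 embryo. Ebf2 in the 5 libraries was 74.8 to 169 CPM, Nhlh2 97.5 to 126 CPM, Reln 278 to 378 CPM, Ebf3 28.8 to 190.0 CPM and Ebf1 16.4 to 39.5 CPM. The highest E16 levels were 2.11, 58.2, 198, 27.1 and 34.4 CPM in the same order, so that Ebf1 overlapped them. The blood and microglia sum was within the E16 range in 9 E13 libraries. There Ebf2 was 0.768 to 169 CPM, Nhlh2 12.9 to 126 CPM, Reln 19.7 to 378 CPM, Ebf3 0 to 190.0 CPM and Ebf1 4.42 to 61.5 CPM, each overlapping its E16 levels. The part of either cell type in the age differences was not tested. Correlations over the 15 E13 libraries are a description only, since these share embryos and include the 5 yellow libraries whose Ebf2 values chose the members. Spearman's rho with the meningeal sum was -0.57 for Ebf2, -0.48 for Ebf3, -0.23 for Ebf1, -0.75 for Reln and -0.68 for Nhlh2. With the projection neuron sum it was 0.52 for Ebf2, 0.53 for Ebf3, 0.66 for Ebf1, 0.88 for Reln and 0.49 for Nhlh2. With the radial glia sum it was -0.27, -0.38, -0.62, -0.52 and -0.05 in the same order.

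**Figure D5:**
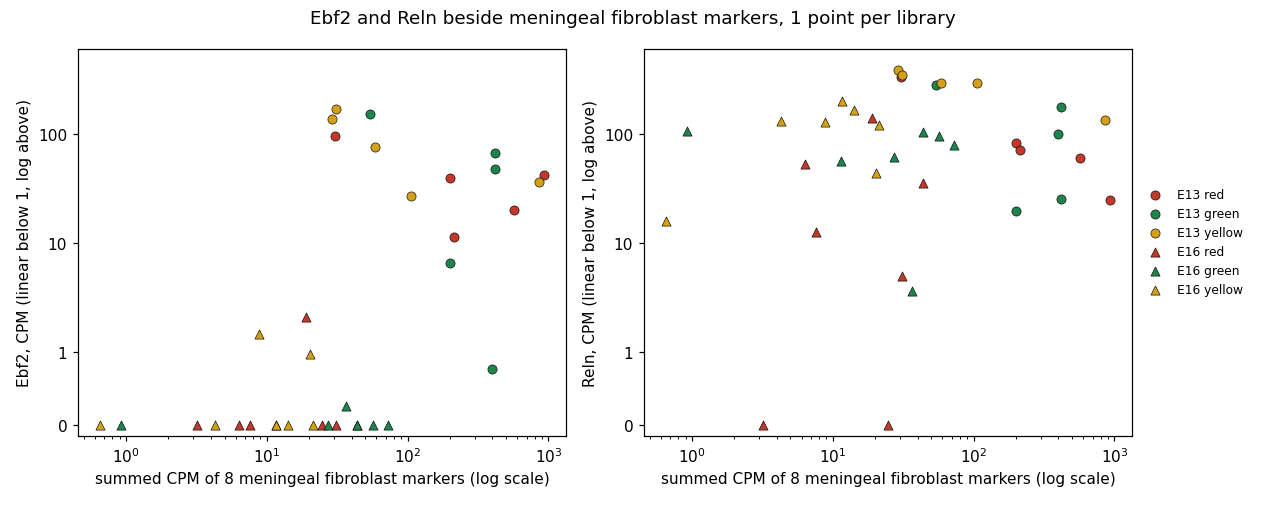
Ebf2 (left) and Reln (right) in CPM, on an axis that is linear below 1 and logarithmic above, against the summed CPM of 8 meningeal fibroblast markers on a log axis, with 1 point per library, colored by sorted color and shaped by age. The sums run from 29.1 to 927 CPM at E13 and from 0.654 to 73.1 CPM at E16, and the yellow Ebf2 values among the points are those that chose the members.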

How the data were processed

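The authors aligned Smart-Seq2 reads with STAR 2.5.0c to GRCm38 with the Gencode M16 annotation and deposited raw gene counts, not normalized, with 1 file per library that holds an unstranded and 2 stranded columns. The unstranded counts were used, since the kit does not mark strand. Of 53379 gene identifiers, 53274 matched Gencode M21 of the same build, and rows that name no gene were left out. Reads without a feature were 12.8% to 44.1% of unique reads.

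Ages and colors were taken from the labels. Genes with a mean count of at least 10 in a fit entered the quasi-likelihood test of edgeR 4.0.16 (R 4.3.3, TMM, Benjamini-Hochberg, threshold 0.05). For age in singly colored cells, red and green counts were summed per embryo, 5 against 7. The color fits used the embryo as a block, after the methods of the study. Log2 CPM for permutation tests used a prior count of 2. Deviations of same-numbered libraries correlated at 0.045 (E13) and 0.030 (E16) on average, beside -0.009 and -0.003 for libraries of different numbers. Such low values do little to show the pairing, which was taken from the replicate numbers. The model fits were tested on simulated data.

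The members, gene lists and tests were chosen with earlier results of these data known. The rule named all members, Dab1, Lrp8 and Vldlr, at most 3 genes per list and direction past the threshold in singly colored cells, and the 5 genes most like Ebf2 and Reln. 1 gene that the rule named is not reported here. Ebf4, Zfp423, Zfp521 and Trp53 were named after their values were seen, as were markers given for single colors or by detection alone. Alternatives were DESeq2 1.42.0, other scaling, filters, library choices and blocks. Pooled ratios without each embryo or library were added after seeing the data. Replicates 1 to 3 of each age came from another cross than later ones in the sample sheet of the study.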

Additional observations from a re-analysis of the deposited data

Results flagged for a closer look

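A sample far from the rest of its group, by Dixon's 95% critical value on log2 CPM, was found 13 times among 49 combinations of member and group that varied. Chance alone flags about 1 in 20 groups. Several of these are single counts against libraries at 0. Ebf2 was 0.260 CPM in E16 green replicate 3 and 2.11 CPM in E16 red replicate 7, each from 1 count, and Ebf3 was 2.11 CPM in the latter library, also from 1 count. Lhx1 was 1.48 CPM in E13 green replicate 1 (3 counts) and 2.47 CPM in E16 green replicate 1 (4 counts). Lhx5 was 0.231 CPM in E13 yellow replicate 4 (1 count) and 1.52 CPM in E16 red replicate 3 (6 counts).

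E13 yellow replicate 2 stood apart for 3 members. It had the highest Ebf1 of its group (61.5 CPM, next 34.2 CPM), 0 counts of Ebf3 where the next lowest library had 228 counts, and the lowest Nhlh2 (12.9 CPM, next 64.6 CPM). The study also left this library out. Reln was lowest in E13 yellow replicate 1 (134 CPM, next 290 CPM) and in E16 green replicate 3 (3.64 CPM, next 55.5 CPM). Nhlh2 was 0 CPM in E16 green replicate 7, where the next lowest library had 9.17 CPM.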

How the results depend on the processing

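Counts of genes past the threshold moved by more than 1.5 times in these cases. By DESeq2 there were 1264 genes for age in singly colored cells, 307 in red, 696 in green and 191 in yellow, 538 and 82 for singly colored against yellow at E13 and E16, 229 and 76 for green against red at E13 and E16, and 79 for the age difference between green and red. With all 39 libraries there were 55 for age in singly colored, 5 in red and 36 in green cells, and 0 for singly colored against yellow at E13. With the 32 libraries of the study there were 189 in red, 146 in yellow and 9 for singly colored against yellow at E13. Without the filter on low counts there were 55 in yellow, 20 and 2 for singly colored against yellow at E13 and E16, 1 for green against red at E13 and 3 for the age difference between green and red. RLE size factors gave 2 for singly colored against yellow at E13. Replicates 1 to 3 alone gave 211 in singly colored, 53 in green and 0 in yellow cells, and later replicates alone 0 in singly colored, 0 in red, 13 in green and 0 in yellow cells.

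The ages share only replicate numbers, which do not pair different embryos. With the replicate block, age gave 302 genes in singly colored, 15 in red, 59 in green and 6 in yellow cells, and Ebf2 kept its call in singly colored cells but not in red (adjusted p = 0.296) or green (adjusted p = 0.102) by edgeR. Without the replicate block, singly colored against yellow gave 9 genes at E13. Leaving out single replicates gave 224 to 450 genes for age in singly colored, 5 to 78 in red, 71 to 203 in green and 1 to 31 in yellow cells, and 0 to 7 for singly colored against yellow at E13. The other color comparisons stayed at 0.

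Ebf2 at E16 reached a floor of 1 count in 4 libraries, and a floor of 10 counts in 0, as in 0 libraries thinned to 472924 counts. Of 613 alternative values for the tested members, 559 kept direction and side of the threshold, 34 lost the call, 9 gained it and 11 turned, none of these a called result. Leaving out single libraries, Calb2 in red cells ran from -0.25 (without E16 red replicate 6) to 2.82, and Trp73 in green cells from -1.17 to 0.34 (above 0 without E13 green replicates 1 and 2), with 4.47 in later replicates. For singly colored against yellow at E13, Ebf3 ran from -1.79 to 0.60 and Nhlh2 from -0.77 to 0.40, both above 0 without replicate 4, and Lhx1 was 0.046 with the 32 libraries. At E16 Calb2 ran from -0.51 to 0.32 (above 0 without replicates 3, 4 and 5) and was 0.48 without the replicate block. The cause was not tested. At 472924 to 5205788 gene counts, levels under 0.576 to 6.34 CPM were not detectable.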
